A study of Mus musculus with 6 samples.

Results

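The cells described here are 389 microglial barcodes with many Ccl3 transcripts together with transcripts of Lpl or Fam20c. They were chosen on measured values. A barcode of the droplet data entered when it had over 200 and at most 2500 detected genes, under 5% of its unique molecular identifiers (UMIs, each counting 1 captured RNA molecule) on mitochondrial genes, at least 2000 UMIs in all, and over 3% of UMIs on 6 genes abundant in microglia (Cst3, C1qa, C1qb, C1qc, P2ry12 and Tmem119). It then needed at least 15 UMIs of Ccl3, at least 3 UMIs of Lpl and Fam20c together, and under 10 UMIs of Cd74. Of 40411 barcodes, 38751 passed the limits on genes and mitochondrial UMIs, 22145 of these had 2000 UMIs or more, and 21615 of those were microglial. The 389 members were 1.80% of the 21615 (exact binomial 95% interval, 1.63 to 1.99%), and the 21226 remaining microglial barcodes are called the other microglia.

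The data came from CD45+ cells sorted from the tumor-bearing right hemisphere of female SCID mice, which lack T and B cells, after intracranial implantation of 50000 U87 cells, a human glioblastoma cell line. In 3 mice the U87 cells expressed IL-33 and the brains were taken after 3 weeks, and in 3 mice they carried the empty vector pcDNA 3.1 and the brains were taken after 6 weeks. The mice were 8 weeks old at implantation by the description of the procedure and 6 to 8 weeks old by the age label. All 6 libraries stand in 1 matrix whose barcodes carry a library number that the sample labels do not tie to a mouse. The barcode numbers of libraries 1 to 6 equal, in order, the cell numbers that the authors list for 3 control and 3 IL-33 samples. Groups were still taken from the labels alone, so the matrix was treated as 1 pooled sample and IL-33 and pcDNA tumors were not compared. Spread between libraries was therefore not separated here from a difference between the tumors. Members and other microglia are set side by side in each library, without a test, since the members were chosen on their transcripts.

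The libraries held 2879 to 10217 barcodes and 9745192 to 24393841 UMIs, with median depths of 1536 to 3503 UMIs per barcode. Members were found in each library, 69 in library 1, 115 in library 2, 29 in library 3, 78 in library 4, 37 in library 5 and 61 in library 6. They made up 1.40% (0.940 to 2.01%) of the microglia of library 3, the lowest share, and 2.32% (1.84 to 2.89%) of those of library 4, the highest, so that these intervals met. The barcode sequence itself also occurred in another library for 14722 of all 40411 barcodes (36.4%), for 76.6% of those under 2000 UMIs and for 23 of the 389 members (5.91%), but no sequence was a member in 2 libraries. Without such barcodes, 77 genes in place of 72 were at least 2-fold higher in the members.

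Microglia are the resident macrophages of the brain. In neurodegeneration, demyelination, development and tumors, some of them lower homeostatic genes such as P2ry12 and Tmem119 and raise genes for lipid uptake, lysosomes and cell adhesion, a program often called disease-associated. Ccl3 and Ccl4 encode chemokines that attract leukocytes and are transcribed early after stimulation, and CCL3 acts on CCR1 among other receptors. Lpl encodes lipoprotein lipase, which frees fatty acids from lipoproteins, and Fam20c encodes a kinase of the secretory pathway that phosphorylates secreted proteins, osteopontin (Spp1) among them.

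The genes used for the choice are given first, as a description of the members and not as a finding. Levels are in CPM, the sum of a gene's UMIs over the barcodes per 1000000 UMIs of all genes in them, with exact Poisson 95% intervals that, as for all intervals here, cover counting error only. Ccl3 stood at 9586 CPM (9435 to 9738) in the members and at 1945 CPM in the other microglia. Fam20c stood at 1037 CPM (988 to 1088) against 47.9, and Lpl at 255 CPM (230.5 to 280.4) against 13.2. Among members the median was 34 UMIs of Ccl3 and 4 of Fam20c, whereas the median for Lpl was 0, so Fam20c carried the shared limit in most barcodes. Both genes were detected in 130 members (33.4%), Fam20c without Lpl in 245 (63.0%) and Lpl without Fam20c in 14 (3.60%). P2ry12 stood at 1797 CPM against 3973 and Tmem119 at 1276 against 2439, while C1qa was at 9992 CPM against 9214. The limit on microglial UMIs was set on the 6 genes together and did not fix the presence of each. A P2ry12 UMI was found in 371 members and a Tmem119 UMI in 346, whereas a Cst3 UMI was found in 389. Of the 6 genes, P2ry12, Tmem119 and Cst3 (ratio 0.741) were lower in the members.

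Of the further markers given for these cells, each was higher in the members of every library. The markers were named with earlier results of these data known, so their levels too are a description and not a finding. Fabp5 encodes a fatty acid binding protein. It stood at 53.5, 79.6, 66.9, 64.8, 61.5 and 35.5 CPM in the members of libraries 1 to 6 and at 2.24 to 6.60 CPM in the other microglia, so that the libraries did not overlap, and over all libraries its level was 12.5-fold higher (9.94 to 15.7). Csf1 encodes a growth factor on which microglia depend through the receptor CSF1R. It stood at 137, 117, 109, 80.2, 123 and 98.7 CPM in the members and at 10.7 to 17.5 CPM in the other microglia, 7.17-fold higher (6.09 to 8.40) without overlap. Mmp12, which encodes macrophage elastase, was 13.9-fold higher at 49.0 CPM, but 37 of its 79 UMIs lay in a single barcode of library 2. Without that barcode the ratio was 7.41 (5.21 to 10.3), without library 2 it was 6.80, and only 22 of the 389 members had an Mmp12 UMI. The members of library 3 held 1 Mmp12 UMI, so the direction of this gene within single libraries rests on few UMIs.

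Across all genes, 2864 had 50 CPM or more in the members or in the other microglia, the genes of the choice left aside. Of these, 72 (2.51%) were at least 2-fold higher in the members and 21 (0.733%) were at most at 0.5 times the level of the other microglia, while the median gene stood at a ratio of 0.972. Members were deeper, with a median of 3891 UMIs and 1487 genes against 3257 UMIs and 1350 genes, and their median mitochondrial share was 1.40% against 1.25%. With both sides thinned to 2000 UMIs per barcode, the counts were 77 higher and 38 lower. Of the 72 higher genes, 68 were higher in all 6 libraries, against 12.4% of all genes considered, and 62 lay above the other microglia without overlap of the libraries, against 5.34% of all genes considered. All 21 lower genes were lower in every library, against 18.8% of all genes considered, and 17 of them lay below without overlap, against 8.45%. The limit of 50 CPM bears on these counts, because 45 of the 72 higher genes reached it in the members alone and therefore had to differ, as did 15 of the 21 lower genes in the other microglia alone. With the limit set on the level over all microglia together, a choice made after seeing the data, 28 of 2660 genes (1.05%) were higher and 21 lower. The ratio's interval lay wholly above 2 for 53 genes and wholly under 0.5 for 5.

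**Figure D1:**
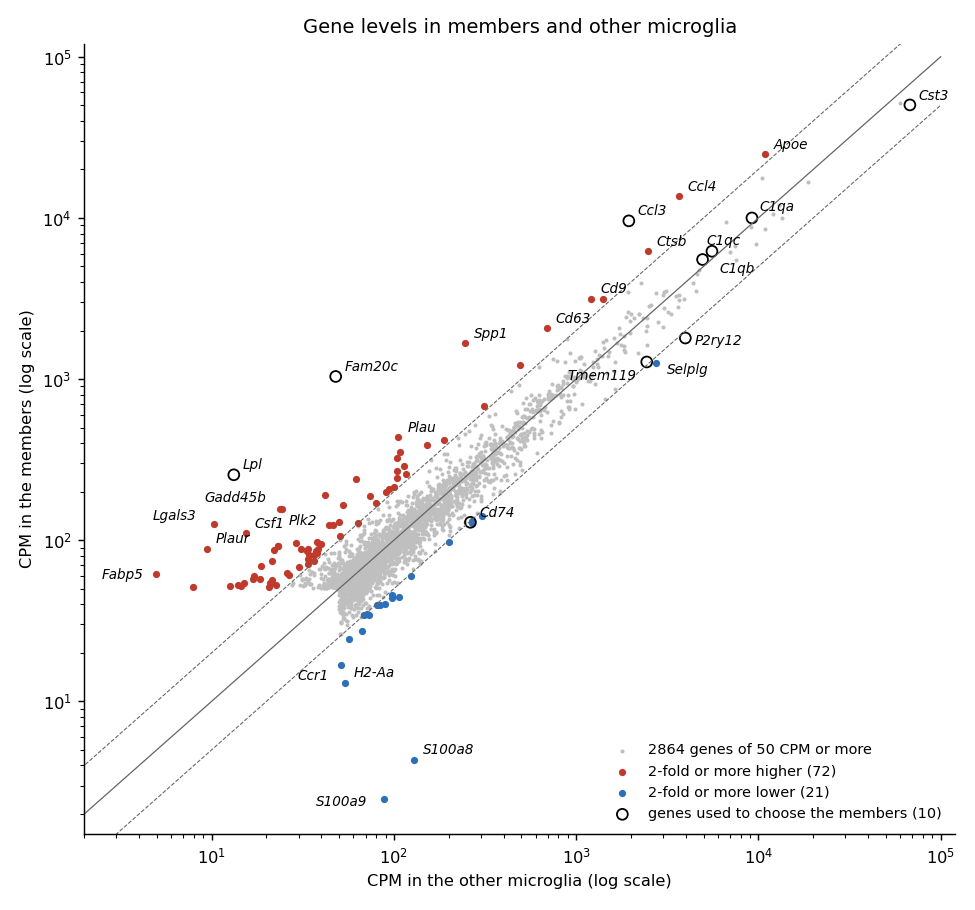
Each point is a gene, with its CPM in the 21226 other microglia (x axis) and in the 389 members (y axis), both on log scales. The solid line marks equal levels, the dashed lines ratios of 2 and 0.5, and open circles the 10 genes used to choose the members. Fabp5, Lgals3 and Plaur lie farthest above the dashed line among the 72 higher genes, and S100a8 and S100a9 farthest below it.

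Genes of the disease-associated program supplied more of the higher genes than any other list. The list was chosen with earlier results of these data known, and it holds Fabp5 and Csf1, markers given for the members. Its counts therefore describe the members and are not a test. Of 23 such genes at a sufficient level, 13 were at least 2-fold higher, against 2.51% of all genes, none was at or below 0.5, all 23 had a ratio above 1 and 21 were higher in every library, against 12.4%, with a median ratio of 2.28 against 0.972 over all genes. Of the 13, 5 reached 50 CPM in the members alone, and with the limit on all microglia together 8 of 18 were at least 2-fold higher, against 1.05%, with a median ratio of 1.85 against 0.951. Lgals3, which encodes the lectin galectin-3, stood at 50.2, 177, 142, 123, 154 and 103 CPM in the members of libraries 1 to 6 and at 4.24 to 13.7 CPM in the other microglia. The groups did not overlap, and the level was 12.3-fold higher (10.4 to 14.3), or 4.73-fold when barcodes of over 2500 genes were let in on both sides. Apoe, the lipid carrier apolipoprotein E, was among the most abundant transcripts of the members, at 17330.1, 23261, 19577, 23439, 34242 and 34294 CPM against 4685 to 18645 CPM. It was higher in the members of every library, 2.28-fold in all (2.26 to 2.31), although library 1 members lay below the other microglia of library 5. The tetraspanin genes Cd9 and Cd63 were 2.61-fold (2.54 to 2.69) and 3.00-fold (2.89 to 3.10) higher. The integrin gene Itgax was 3.79-fold higher, the receptor kinase gene Axl 3.16-fold and the lysozyme gene Lyz2 2.49-fold. Trem2, the lipid-sensing receptor of microglia, differed less, at 2406 against 2080.1 CPM (ratio 1.16). Clec7a was not among the genes of the matrix.

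Spp1, which encodes osteopontin, varied widely between libraries. It stood at 144, 1150.1, 33.4, 4174, 2974 and 1102 CPM in the members of libraries 1 to 6 and at 94.5, 204, 11.8, 501, 502 and 217 CPM in the other microglia of the same libraries. Members exceeded the other microglia within every library, but the libraries overlapped, and the ratios within libraries ran from 1.52 to 8.34. Over all libraries the ratio was 6.81 (6.54 to 7.09). A single member of library 4 held 686 of the 2683 Spp1 UMIs (25.6%), without which the ratio was 5.08, and 20 members held 82.8% of them.

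**Figure D2:**
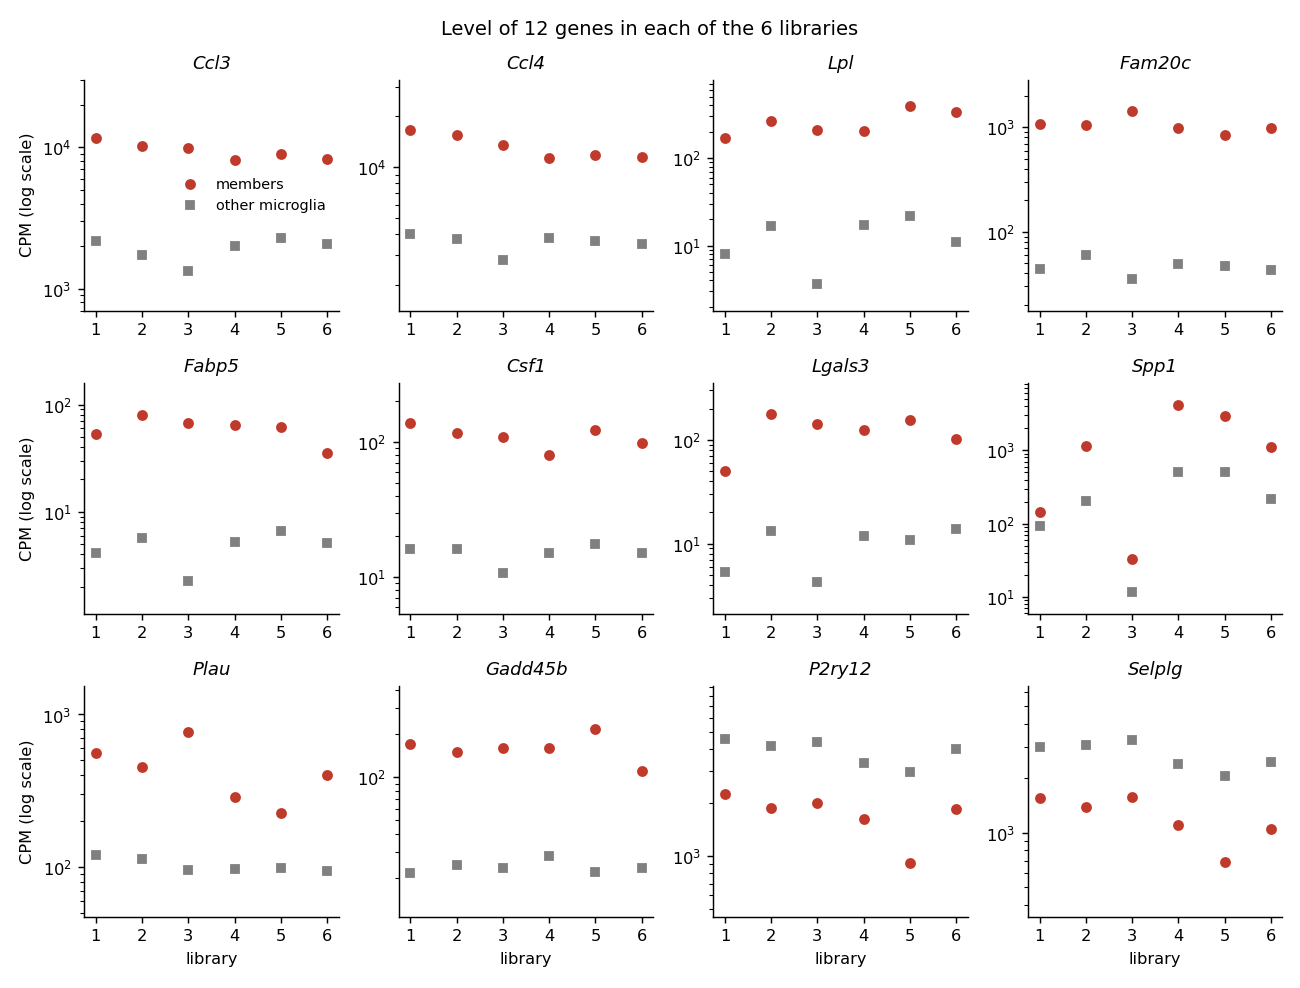
CPM of 12 genes (log scale) in the members (red circles) and in the other microglia (grey squares) of libraries 1 to 6. The red and grey points are apart in every panel except Spp1, where both shift by library, and for P2ry12 and Selplg the members lie below.

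Among secreted signals, Ccl4 stood out from the other CC chemokines. Ccl4, which the choice did not use, stood at 16497, 15423, 13466, 11332, 11817 and 11529 CPM in the members of libraries 1 to 6 and at 2821 to 4028 CPM in the other microglia, 3.74-fold higher (3.69 to 3.80) without overlap. Of the 7 CC chemokine genes at a sufficient level it alone reached 2-fold, against 2.51% of all genes. With the limit on all microglia together 1 of 6 did, against 1.05%. The median ratio of the list was 1.14, against 0.972 over all genes. This median fell below 1 (0.929) with the other microglia weighted to the libraries and depths of the members. With barcodes of over 2500 genes let in it was 1.57, and 2 genes reached 2-fold. Ccl12 and Ccl2, which encode ligands of the monocyte receptor CCR2, did not follow Ccl4. Ccl12 was at 3108 CPM against 3651 (ratio 0.851, lower in all 6 libraries). Ccl2 was at 933 against 849 CPM (ratio 1.10), higher in 4 libraries and lower in 2, and its ratio fell to 0.902 when the other microglia were weighted to the libraries and depths of the members.

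Of 4 CXC and CX3C chemokine genes, 3 were at least 2-fold higher, against 2.51% of all genes, and 1 of 2 with the limit on all microglia together. Cxcl2, a neutrophil attractant, was at 192 CPM against 42.1 (ratio 4.56, 4.04 to 5.13), with 45 members holding its UMIs and 43 of the 309 in 1 barcode of library 4, and the ratio was 2.71 with the other microglia weighted to the libraries and depths of the members. Cxcl16, which encodes the ligand of CXCR6, was at 287 against 113 CPM (2.53-fold, higher in 6 of 6 libraries). For the B cell attractant Cxcl13 the ratio of 3.62 came from 1 barcode of library 6 with 81 of the 88 UMIs, and without it the ratio was 0.289.

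Of 12 cytokine and growth factor genes, 5 were at least 2-fold higher (median ratio 1.69), against 2.51% of all genes, 2 of them at 50 CPM in the members alone. Besides Csf1 and Spp1 these were Pdgfa, which encodes a platelet-derived growth factor chain, at 88.2 against 33.7 CPM, Mif, which encodes macrophage migration inhibitory factor, at 244 against 104 CPM, and Tnf. Tnf, a cytokine transcribed on NF-kB activation, stood at 776, 703, 585, 673, 829.6 and 505 CPM in the members of libraries 1 to 6 and at 246 to 382 CPM in the other microglia, 2.19-fold higher without overlap. Il1a, at 985 against 1009 CPM, had an interval of its ratio (0.929 to 1.03) that included 1.

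Genes of rapid response were split. Of 27 immediate early genes, which are transcribed within minutes of stimulation or of tissue dissociation, 3 were at least 2-fold higher, against 2.51% of all genes, 2 of them at 50 CPM in the members alone, and the median ratio was 0.896. With the limit on all microglia together, 1 of 25 was. The 3 were Plk2, a stress-induced kinase gene, at 157 against 24.3 CPM (6.47-fold, 5.65 to 7.38), Nab2, which encodes a corepressor of EGR proteins, at 92.5 against 23.3 CPM, and the small Maf factor gene Maff. The most abundant genes of the list were lower in all 6 libraries, Jun at 9987 against 13394 CPM, Fos at 8570.0 against 10879 CPM and Junb at 6885 against 9648 CPM. Among 16 genes of NF-kB signaling and its feedback, 3 were at least 2-fold higher, against 2.51% of all genes, and 8 were higher in every library, against 12.4%. A ratio above 1 was found for 12 of them, and the median ratio was 1.24 against 0.972 over all genes. Of the 3, Gadd45b reached 50 CPM in the members alone. With the limit on all microglia together 2 of 14 were at least 2-fold higher, against 1.05% of all genes. There 10 of the 14 had a ratio above 1, against 1084 of 2660 genes. Gadd45b, whose product limits JNK signaling, stood at 171, 148, 159, 160.4, 215 and 111 CPM in the members and at 21.4 to 28.1 CPM in the other microglia, 6.58-fold higher (5.74 to 7.51) without overlap, or 4.20-fold when members were chosen on 50% of the UMIs and levels read from the others. Cd83 was 3.24-fold higher, and the inhibitor genes Nfkbia and Nfkbiz had ratios of 1.27 and 0.961. Bcl2a1b, the third of them, shares most of its sequence with Bcl2a1a and Bcl2a1d, so its level is uncertain. Heat shock genes stood at a median ratio of 1.01 (0.976 to 1.05 over the alternatives that kept all libraries), with Hspa1a, a near copy of Hspa1b, at 0.451.

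Plau and Plaur, which encode urokinase and its receptor, were higher in the members of every library. Plau stood at 562, 456, 769, 290.0, 227 and 403 CPM in the members of libraries 1 to 6 and at 94.9 to 120.2 CPM in the other microglia, 4.11-fold higher (3.80 to 4.44). Plaur stood at 88.8 against 9.42 CPM, 9.42-fold higher (7.81 to 11.3), and neither gene overlapped between the libraries. Of 11 genes of matrix proteins, proteases and their inhibitors, 4 were at least 2-fold higher (median ratio 1.53), against 2.51% of all genes, and 2 of 9 with the limit on all microglia together (median 1.28), while Mmp9, Mmp13, Timp1, Timp3 and Vcan had no UMI in the members. The fourth besides Spp1 was Fn1, which encodes fibronectin, at 51.5 against 7.90 CPM, but it was higher in only 4 of 6 libraries, and libraries 1 and 3 had no Fn1 UMI in their members. Sdc4, which encodes the heparan sulfate proteoglycan syndecan-4, was at 52.1 against 12.6 CPM (4.13-fold, higher in 6 of 6 libraries). Sparc, a matrix protein gene of resting microglia, was lower at 2533 against 3301 CPM.

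Lipid, lysosomal and glycolytic genes had median ratios between 1.30 and 1.61. Of 15 lipid handling genes beside Lpl, 5 were at least 2-fold higher (median ratio 1.61), against 2.51% of all genes, and 2 of 10 with the limit on all microglia together (median 1.52). The 5, of which 3 reached 50 CPM in the members alone, included Nceh1, which encodes a cholesterol ester hydrolase, at 91.9 against 23.0 CPM, and Plin2, which coats lipid droplets, at 215 against 100.2 CPM. Mgll, a monoacylglycerol lipase gene, was lower in all 6 libraries, at 31.0 against 51.3 CPM. Of 28 lysosomal genes, 3 were at least 2-fold higher, against 2.51% of all genes, and 23 had a ratio above 1 (median 1.30). With the limit on all microglia together 21 of 26 had a ratio above 1, against 1084 of 2660 genes, whereas the summed level of the whole list, led by Cst3, one of the genes of the choice, had a ratio of 0.986. The cysteine protease gene Ctsb stood at 6128, 6668, 6997, 5584, 6748 and 5709 CPM in the members of libraries 1 to 6 and at 2083 to 3062 CPM in the other microglia, 2.53-fold higher. Ctsd, at 17781 against 10438 CPM, was 1.70-fold higher in all, whereas Ctss was at 8793 against 9146 CPM. All 14 glycolysis and hypoxia genes had ratios of 1.00 or more, with a median of 1.59, but Slc16a3, the lactate transporter gene MCT4, alone reached 2-fold (2.58), and it reached 50 CPM in the members alone, so that with the limit on all microglia together 0 of 12 did.

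Of 20 genes for receptors and surface proteins of activated myeloid cells, 5 were at least 2-fold higher (median ratio 1.19), against 2.51% of all genes, and 4 of 19 with the limit on all microglia together. These were Itgax, Axl, Cd9, Tlr2 and Cd84. Tlr2, a receptor for bacterial lipoproteins, was at 392 against 151 CPM. Fcgr3, an Fc receptor gene, was lower in all 6 libraries, at 931 against 1266 CPM.

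**Figure D3:**
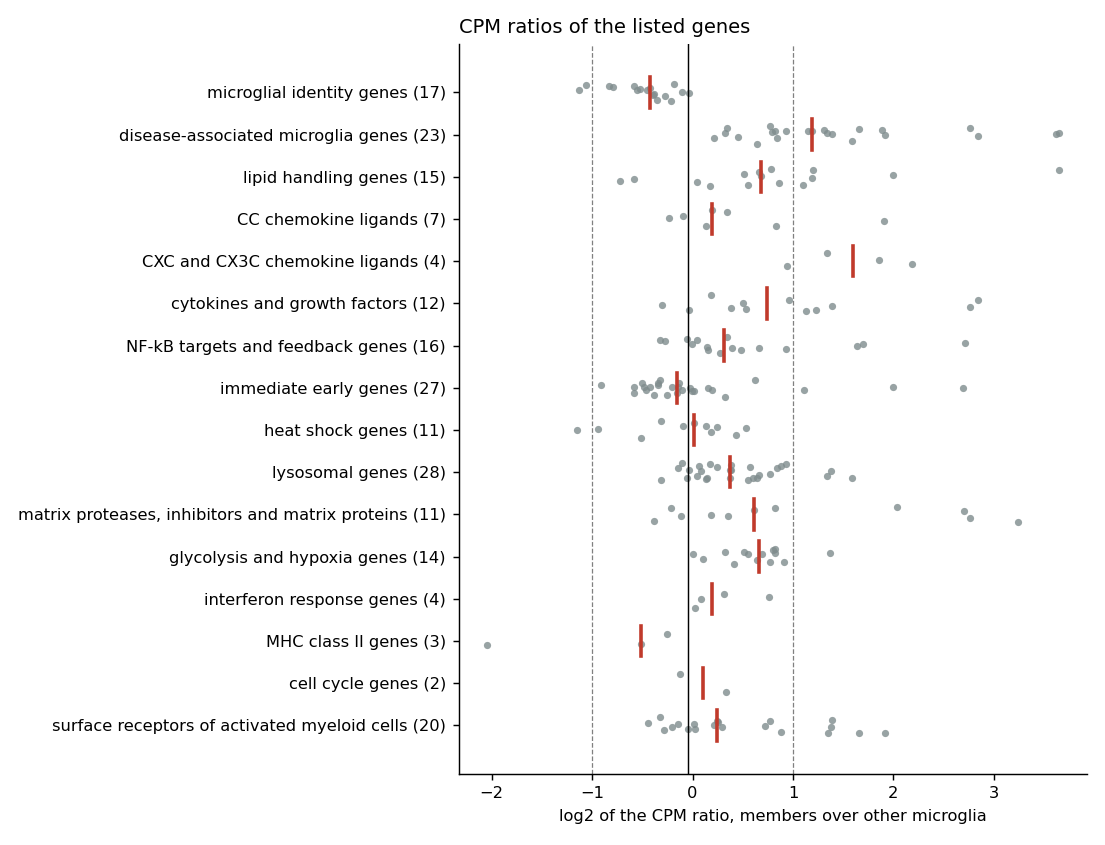
Each grey point is the log2 CPM ratio of a gene, members over other microglia, with genes grouped by list and the number of genes in parentheses; vertical scatter is only for legibility. The red bar is the median of a list, the black line the median of all 2864 genes and the dashed lines ratios of 0.5 and 2. The disease-associated genes all lie right of 0, and the microglial identity genes all lie left of it.

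The lower genes included 2 identity genes of resting microglia, and the other identity genes leaned the same way. None of 17 microglial identity genes had a ratio above 1, 14 were lower in every library, against 18.8% of all genes, 2 were at or below 0.5, against 0.733%, and the median ratio was 0.746 against 0.972. With the limit on all microglia together, 1084 of 2660 genes had a ratio above 1. Selplg, which encodes the selectin ligand PSGL-1, stood at 1555, 1382, 1572, 1108, 688 and 1046 CPM in the members of libraries 1 to 6 and at 2059 to 3244 CPM in the other microglia (ratio 0.456, 0.436 to 0.476), without overlap. Csf1r, the receptor gene for the product of Csf1, was at 2807 against 3599.6 CPM and the fractalkine receptor gene Cx3cr1 at 1508 against 1826 CPM.

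S100a8 and S100a9 encode calprotectin, an abundant protein of neutrophils. Members held 7 and 4 UMIs of them (4.35 and 2.48 CPM), against 129 and 88.4 CPM in the other microglia, where a single barcode held up to 1251 S100a8 UMIs. The ratios of 0.0338 and 0.0281 rose to 0.117 and 0.291 with barcodes of over 2500 genes let in, and all 4 S100a9 UMIs lay in library 2. The share of barcodes with an S100a8 UMI, after thinning to 2000 UMIs, was 1.03% among members and 0.947% among the other microglia, so the lower CPM lay in a few barcodes of the others. H2-Aa, an MHC class II gene, held 21 UMIs in the members, and its ratio was 0.242 (0.150 to 0.371). Cd74, the class II invariant chain, was limited by the choice, and against the 17241 microglia that had under 10 Cd74 UMIs and met neither other limit the ratio of H2-Aa was 2.09. Its lower level therefore depended on the microglia set against the members. Ccr1, which encodes a receptor for CCL3, was at 16.8 against 51.0 CPM (ratio 0.329, 0.216 to 0.479) and lower in all 6 libraries, on 27 UMIs in the members, and its ratio was 0.618 with barcodes of over 2500 genes let in. The other genes of lowest ratio were Slco4a1 (0.407), Snn (0.418), Bbs9 (0.429) and Col27a1 (0.453), each lower in all 6 libraries.

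Markers of other immune cells came to 16.1 CPM or less per list in the members, and those of 3 brain cell types came to more. Summed over each list, granulocyte genes came to 9.31 CPM, monocyte genes to 8.07, NK cell genes to 14.3, genes of border-associated macrophages to 7.45 and dendritic cell genes to 1.86 CPM. Of the monocyte genes, Ly6c2, Chil3, Hp and F13a1 had no UMI in the 389 members, but the list held 13 UMIs, led by Plac8 at 5.59 CPM (9.23 in the other microglia). A Ccr2 UMI was found in 0.771% of members and 1.85% of the other microglia without thinning. Of the dendritic cell genes, Cd209a, Xcr1 and Clec9a had no UMI, and the list held 3, led by Zbtb46 at 1.24 CPM. Of the genes of border-associated macrophages, Cd163, Lyve1, Cbr2, Ms4a7 and Pf4 had no UMI. The remaining marker of border-associated macrophages with UMIs was Mrc1, at 7.45 against 4.44 CPM (12 UMIs, ratio interval 0.858 to 2.97), found in 2.06% of members and 1.11% of the other microglia without thinning. T or B cell genes came to 16.1 CPM, all of it Cd79b. Endothelial genes came to 9.93 CPM, neuronal genes to 1.86 CPM and erythrocyte genes to 0. Astrocyte genes came to 93.7 CPM, led by Slc1a3 at 92.5 (113.8 in the other microglia), and oligodendrocyte genes to 78.2 CPM, led by Cnp at 35.4 (51.6). The choroid plexus list came to 217 CPM, led by Ttr at 207 CPM against 209.7, and ran from 21.6 to 733 CPM over the libraries. The part of such RNA in the results was not tested.

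The limits on Ccl3 and on Lpl with Fam20c divided the microglia of low Cd74 into 4 groups. Besides the 389 members, 3236 met the limit on Ccl3 alone, 373 met that on Lpl with Fam20c alone, and 17241 met neither. Their median depths were 3766, 3129 and 3179 UMIs. Against the 3236, 41 genes (1.46% of 2807) were at least 2-fold higher in the members and 7 (0.249%) at or below 0.5. Against the 373, 16 genes (0.551% of 2902) were higher and 13 (0.448%) lower. In these comparisons too, a gene could enter by reaching 50 CPM on 1 side alone.

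Of the 23 genes of the disease-associated program, all were higher in the members than with Ccl3 alone (ratio intervals above 1, median 1.78), as were 432 of all 2864 genes (median 0.979). Of the 23, 5 were included because they reached 50 CPM in the members and not in the other microglia, which favors a higher level in the members. Against the group with Lpl and Fam20c alone the median ratio was 1.18 (0.967 over all genes), and the interval lay above 1 for 16, included 1 for 4 and lay below 1 for Cst7, Spp1 and Ccl6. Of all 2864 genes it lay above 1 for 225 and below 1 for 364. Lgals3 was at 126 CPM in the members and 108 CPM with Lpl and Fam20c alone, but at 11.5 CPM with Ccl3 alone and 6.53 CPM with neither. Spp1 was highest, at 2242 CPM, with Lpl and Fam20c alone, against 1666, 426 and 140.2 CPM. The members stood at 1.18 times the level of that group for Itgax and, outside the program, at 1.20 times for Plaur, at 1.15 times for Lgals1, which encodes galectin-1, and at 0.905 times for the annexin gene Anxa5.

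Other genes, Fabp5 and Csf1 of the program among them, were highest where both limits were met. Gadd45b was at 156 CPM in the members, 35.8 with Ccl3 alone, 48.7 with Lpl and Fam20c alone and 20.4 with neither. Plk2 followed the same order, at 157, 31.4, 71.5 and 21.5 CPM. Plau was at 434, 117, 215 and 101 CPM, Fabp5 at 62.1, 8.96, 28.3 and 3.45 CPM, and Csf1 at 111, 25.2, 70.0 and 11.4 CPM. Ccl4 fell in the order of Ccl3, at 13677, 8789, 4349.8 and 2418 CPM. Ccl12 was highest with Ccl3 alone (5536 CPM) and lower in the members (3108 CPM), with Lpl and Fam20c alone (2452 CPM) and with neither (3138 CPM), and Ccl2 had its highest level there too, at 1631 CPM. Selplg was lowest in the members, at 1250.3 CPM, against 1965, 2083 and 2951 CPM.

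**Figure D4:**
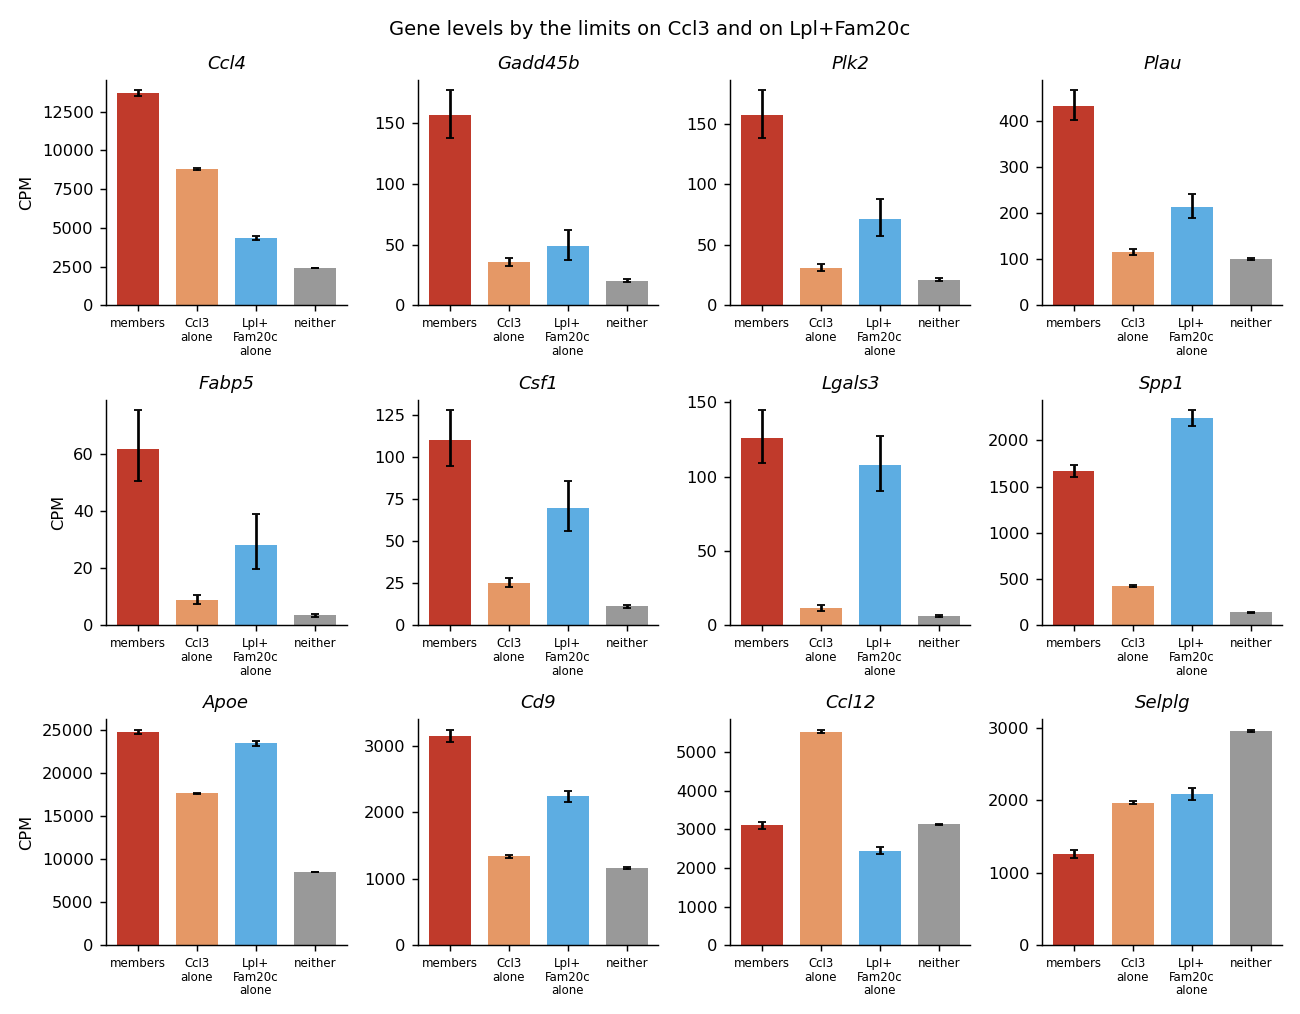
CPM of 12 genes in the members, in microglia that met the limit on Ccl3 alone or on Lpl with Fam20c alone, and in those that met neither, all with under 10 Cd74 UMIs; error bars are exact Poisson 95% intervals. Gadd45b, Plk2 and Plau are highest where both limits were met, Lgals3 is about as high with Lpl and Fam20c alone, and Ccl12 is highest with Ccl3 alone.

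The members differed among themselves with the number of Lpl and Fam20c UMIs, which was 3 in 130 members, 4 or 5 in 139 and 6 or more in 120. Median depths of these classes were close, at 3830.5, 3799 and 4083.5 UMIs. Lgals3 stood at 49.8, 66.2 and 270 CPM in the 3 classes and was highest in the last class in each library. Plau stood at 247, 233 and 847 CPM, but in library 4 the class of 3 UMIs (341 CPM) and the class of 6 or more (328 CPM) were close, as they were in library 5 (297 and 293 CPM). Fabp5 stood at 32.6, 48.8 and 107 CPM, highest in the last class in each library, but the class of 3 UMIs exceeded that of 4 or 5 in libraries 1, 3 and 6. Ctsb stood at 5079, 6429 and 7180 CPM, although the middle class was highest in libraries 2 and 6. Not all genes of the disease-associated list rose in this way over all libraries together. Apoe fell, at 27227, 25742 and 21182 CPM, and Cst7 was highest in the middle class, at 51.7, 80.1 and 73.8 CPM. Of the identity genes, Tmem119 stood at 1484, 1230 and 1117 CPM, but Cx3cr1 changed little, at 1534, 1496 and 1494 CPM. P2ry12 stood at 2124, 1780 and 1485 CPM, lowest in the last class in every library but library 2. Ccl2 stood at 1134, 1099 and 544 CPM, lowest in the last class in every library but library 5, where it stood at 2429, 177 and 1098 CPM. Ccl4 changed little over all libraries together, at 13265, 13655 and 14121 CPM, but more within some. It stood at 10839, 9425 and 14707 CPM in library 6 and at 15829, 10877 and 14215 CPM in library 3. Libraries held 7 to 50 members of a class, so values within a library rest on few barcodes.

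**Figure D5:**
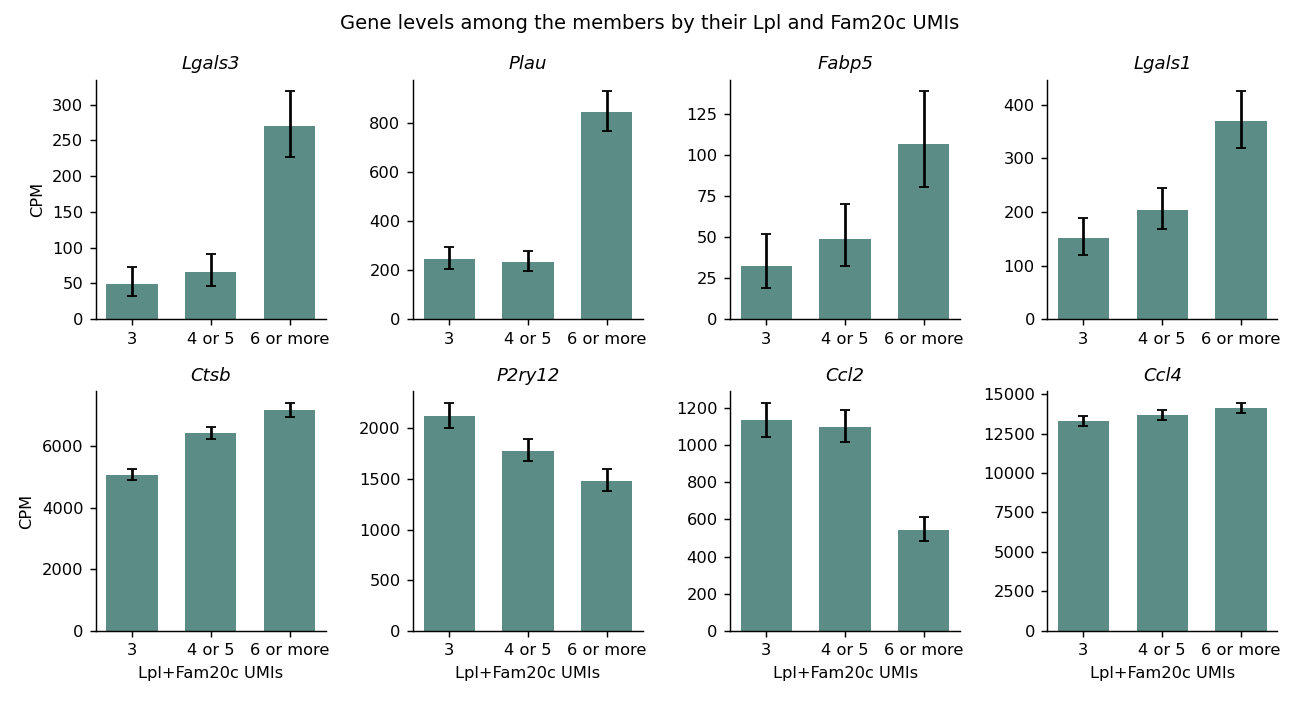
CPM of 8 genes in members with 3 (130 barcodes), 4 or 5 (139) and 6 or more (120) UMIs of Lpl and Fam20c together, with exact Poisson 95% intervals. Over all libraries together Lgals3 and Plau are highest in the last class, P2ry12 and Ccl2 are lowest in it, and Ccl4 differs little. Single libraries depart from this for Plau (4 and 5), P2ry12 (2), Ccl2 (5) and Ccl4 (3 and 6 among others).

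Per barcode, the abundant genes were found in nearly all members and the genes of large ratio in few. After thinning to 2000 UMIs, which left out none of the compared microglia, a Ctsb UMI was found in 98.5% of members, a Ccl4 UMI in 97.9% and a Cd9 UMI in 95.9%. In the other microglia these shares were 96.8%, 73.8% and 83.7%. Csf1 was found in 14.9% (11.5 to 18.8%) of members and 2.61% of the other microglia, Fabp5 in 9.77% (7.01 to 13.2%) and 0.895%, Plaur in 14.1% of members and Plk2 in 16.7%. For comparison with another cell type, 52 barcodes of 2000 UMIs or more with at least 5 UMIs of the NK cell genes Gzma and Nkg7 and at most 3% microglial UMIs (median depth 2595 UMIs) were read in the same way. A Csf1 or Plaur UMI was found in 0 of these 52 barcodes, which allows a share of up to 5.77% (3 counts of 52), and a Fabp5 UMI in 3.85%. Ctsb, Ccl4 and Cd9 UMIs were found in 30.8%, 61.5% and 48.1% of these barcodes. Without thinning, Csf1 was found in 24.4% of members, 4.18% of the other microglia and 1.92% of the NK cell barcodes, and Fabp5 in 14.7%, 1.47% and 3.85%. For Spp1 the share after thinning was 21.6% in members, 7.92% in the other microglia and 19.2% in the NK cell barcodes, and for Lgals3 it was 15.2%, 1.25% and 38.5%. For Spp1, Lgals3 and Fabp5 the share was higher in the NK cell barcodes than in the other microglia of the same libraries, so those barcodes were not read as a background for these genes.

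Barcodes just inside and just outside the limits are given once. The 38 members with 15 to 17 Ccl3 UMIs had Ccl4 at 9099 CPM and Csf1 at 112 CPM, and 52 barcodes with 12 to 14 Ccl3 UMIs that met all other limits had Ccl4 at 7999 CPM and Csf1 at 102 CPM. The 130 members with 3 UMIs of Lpl and Fam20c had Lgals3 at 49.8 CPM, and 204 barcodes with 2 had it at 46.7 CPM. A further 2545 with none had Lgals3 at 7.35 CPM. The limits cut through a range and not between separate sets of barcodes. Beyond the limits on quality, 59 of 864 microglia with over 2500 genes (6.83%) met every other limit, as did 12 of 16014 with under 2000 UMIs.

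The start regions of Csf1, Cxcl2, Lgals3 and Plaur, which are among the 15 genes of highest ratio, are shown because they hold letters that resemble sites of NF-kB or AP-1, factors known to act on many genes of macrophage activation. The windows run from 250 bases before to 50 bases after the start in the RefSeq annotation of build GRCm38.p6, and were found for 51 of the 72 higher genes. Capitals mark matches, on either strand, to the NF-kB consensus of 10 letters, which itself reads on both strands at overlapping positions in Cxcl2, or to TGANTCA (AP-1-like). No NF-kB match overlapped an AP-1-like match in these windows. The Csf1 window lies at chr3:107760420-107760719 (minus strand), that of Cxcl2 at chr5:90903649-90903948 (plus strand), that of Lgals3 at chr14:47373610-47373909 (plus strand) and that of Plaur at chr7:24462233-24462532 (plus strand).
Csf1: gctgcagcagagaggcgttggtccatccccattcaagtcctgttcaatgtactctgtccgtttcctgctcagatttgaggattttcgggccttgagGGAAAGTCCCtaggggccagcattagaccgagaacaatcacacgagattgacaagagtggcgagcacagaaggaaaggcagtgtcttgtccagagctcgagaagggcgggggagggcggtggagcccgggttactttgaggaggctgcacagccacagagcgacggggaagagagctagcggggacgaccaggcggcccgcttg
Cxcl2: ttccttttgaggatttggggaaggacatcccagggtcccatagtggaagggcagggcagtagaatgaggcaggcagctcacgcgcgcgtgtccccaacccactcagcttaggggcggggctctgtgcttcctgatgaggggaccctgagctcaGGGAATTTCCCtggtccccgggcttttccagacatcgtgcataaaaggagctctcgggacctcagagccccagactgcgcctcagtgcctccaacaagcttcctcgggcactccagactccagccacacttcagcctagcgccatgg
Lgals3: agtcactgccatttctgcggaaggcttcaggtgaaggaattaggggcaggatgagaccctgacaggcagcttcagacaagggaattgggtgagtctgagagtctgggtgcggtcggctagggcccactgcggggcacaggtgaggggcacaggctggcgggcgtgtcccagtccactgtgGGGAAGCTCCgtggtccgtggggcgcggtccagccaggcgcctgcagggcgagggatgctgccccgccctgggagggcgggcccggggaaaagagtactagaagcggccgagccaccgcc
Plaur: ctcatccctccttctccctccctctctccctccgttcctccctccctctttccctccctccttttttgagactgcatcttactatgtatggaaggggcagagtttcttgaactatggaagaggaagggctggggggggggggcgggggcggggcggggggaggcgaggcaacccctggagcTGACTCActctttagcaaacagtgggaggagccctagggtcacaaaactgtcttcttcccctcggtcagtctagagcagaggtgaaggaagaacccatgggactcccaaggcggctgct

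The NF-kB consensus was present in windows of 15 of the 51 higher genes (29.4%), of 279 of 2267 genes at a sufficient level with a window (12.3%) and of 2581 of all 27025 genes with a window (9.55%). These figures depend on how the motif is written, since another form of it with 2 fixed T bases in its right part was present in 6 of the 51 (11.8%) and in 152 of the 2267 (6.70%). The AP-1-like letters were present in 6 of the 51 (11.8%), in 6.44% of the 2267 and in 8.97% of all. The E-box letters CACGTG were present in 8 of the 51 (15.7%), in 14.5% of the 2267 and in 8.09% of all. Neither the consensus nor the AP-1-like letters were present in the windows of Ccl3, Fam20c, Tnf, Gadd45b, Plk2, Nab2 and Spp1. A match describes the letters of a window and does not show that a factor bound there.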

How the data were processed

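Single-cell RNA was captured with 10x Genomics 3′ chemistry from CD45+ cells of 6 mice and sequenced in 3 batches, whose libraries the sources used here do not name. The authors aligned the reads to the mouse genome mm10 with Cell Ranger 3.1 and aggregated the libraries. The deposited matrix holds the authors' raw counts of UMIs, whole numbers without normalization, per gene and barcode. Reads of the human U87 cells were not analysed here.

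Barcodes were kept by the authors' limits (over 200 and at most 2500 genes, under 5% mitochondrial UMIs). The members and all gene lists were chosen with earlier results of these data known. UMIs were summed over barcodes and divided by the total of all genes (CPM). Genes with 50 CPM or more on either side were compared, and ratios of at least 2 or at most 0.5 were counted. Since the labels do not tie libraries to mice and the members were chosen on the readout, no p-values were computed. Intervals were the exact Poisson for levels, the exact binomial (Clopper-Pearson) for shares and the exact binomial split of UMIs for ratios, at 95%. They take UMIs as independent. The calculations were checked on data simulated with independent UMIs, which cannot show how the intervals do where UMIs gather in few barcodes. Named genes were the markers of the members, the genes of the choice, the 15 genes of highest and 10 of lowest ratio with the same direction in every library, and up to 6 per list by level or ratio. The values of 1 gene of these lists are not reported here, and the gene is still counted in its lists. Doublets were limited by the sort and by the 2500-gene limit. Scrublet (scanpy 1.11.5) called 7 of 38751 barcodes, too few to be taken as working, so its highest 5% of scores per library were removed as an alternative. Symbols shared by different gene IDs were kept apart. Python 3.11.15, numpy 2.4.6, scipy 1.17.1 and pandas 2.3.3 were used.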

Additional observations from a re-analysis of the deposited data

Results flagged for a closer look

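Over the 6 libraries, 96 values of the members were examined for a library far from the others, by Dixon's criterion, and 11 were picked out, where chance picks about 1 group in 20. Explanations were not weighed, and the values follow. Library 3 had the highest Fam20c level, 1429 CPM, with the next at 1067, and the lowest C1qb level, 4982 CPM. Library 2 had the highest Mmp12 level, 117 CPM, 37 of whose UMIs were in 1 barcode, and the highest S100a9 level, 8.85 CPM, with 0 in each of the others. Library 5 had the lowest level of Nceh1, 49.2 CPM, and the highest of Cstb, which encodes the protease inhibitor cystatin B, 479 CPM. Library 4 had the highest Nab2 level, 139 CPM. Library 1 had the highest levels of the class II genes H2-Aa, 43.5 CPM, and H2-Ab1, 160.6 CPM, and of Fcgr3, 1131 CPM. Its other microglia also had the highest H2-Aa and H2-Ab1, 166 and 270.4 CPM. Library 6 had Cxcl13 at 336 CPM, with 81 UMIs in 1 barcode, and the next library stood at 12.3 CPM.

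A signal also lay outside the barcodes compared. Of 864 microglia with over 2500 genes, 59 met all other limits, or 6.83%, against 1.80% of the microglia within the limit. The limits on Ccl3 and on Lpl with Fam20c are counts of UMIs, which a barcode with more UMIs reaches more readily. The authors considered barcodes of over 2500 genes to be doublets. The part of depth or doublets in this share was not tested.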

How the results depend on the processing

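No paired analysis was possible because the labels do not tie the barcodes' library numbers to mice, so that IL-33 and pcDNA replicates were not paired, and the members, chosen on the readout, were set beside the other microglia of each library without a test. The main counts were 389 members, 72 genes at least 2-fold higher and 21 at most at 0.5. Leaving out each library in turn gave 274 to 360 members, 72 to 76 higher and 21 to 28 lower genes. A limit of 2 on Lpl with Fam20c gave 593 members and 13 lower genes, and a limit of 5 gave 178 members and 55 lower genes. The lower genes also numbered 8 with no upper limit on genes, 35 with Ccl3 at 25 or more, 46 with members chosen on 50% of the UMIs at random and levels read from the others, 38 after thinning to 2000 UMIs and 42 against microglia under both limits. Genes of 50 CPM or more over all microglia together, an alternative chosen after seeing the data, gave 28 higher and 21 lower. Genes of 20 CPM or more gave 134 higher and 64 lower, those of 100 CPM or more 35 and 8, and a ratio of 1.5 gave 184 and 167. Leaving out, for each gene, the 5% of barcodes with the highest level on both sides, an alternative chosen after seeing the data, gave 120 higher genes, since many genes are found in few barcodes of the other microglia. With no upper limit on genes, 52 were higher, 49 of them among the 72, and with Ccl3 at 10 or more, 69 were, all among the 72.

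Of 94 named genes, 86 had an interval of the ratio without 1, and 81 of these kept their side of 1 under every alternative that gave them a ratio, 26 for 80 of the 94 and 25 for the other 14, which had no UMI left on a side once the highest 5% of barcodes were left out. The exceptions were Ccl2 (0.998 with the limit on Ccl3 set in CPM, 0.902 with Lpl and Fam20c at 5, 0.933 with members chosen on a random part of the UMIs, 0.902 with weighted others), Cxcl13 (0.329 with Lpl and Fam20c at 5, 0.176 without library 6, and 5.80 without library 4), and, against microglia under both limits, Cd74 (1.79), H2-Aa (2.09) and H2-Ab1 (1.29). Without the highest 5% of barcodes Cd74 stood at 1.80 and H2-Ab1 at 1.23. Causes were not tested beyond what each alternative changes by construction. No scaling moved the median of all genes by more than 0.1 on the log2 scale, and the medians of the disease-associated and identity lists ran from 1.93 to 2.71 and from 0.718 to 0.795 over the alternatives that kept all libraries. Genes of 50 CPM rest on about 80 UMIs in the members, which sets the precision of the ratios of sparse genes.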
